A study of Homo sapiens with 12 samples.

Results

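Cycling cells were selected on their own transcripts in the single-cell RNA-sequencing (scRNA-seq) data of 3 lines from squamous cell carcinoma of the head and neck (HNSCC). A cell was a member if it held at least 1 unique molecular identifier (UMI, a tag that marks a single captured transcript) of MKI67 and at least 1 of TOP2A. This rule gave 10913 cycling cells of 23914 cells in all: 2623 of 5270 in SCC1, 4962 of 9724 in SCC6 and 3328 of 8920 in SCC25. The remaining 13001 cells are called other cells here. Because MKI67 and TOP2A chose the members, their levels are given as a description without a test, and the rule did not use the treatment.

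MKI67 encodes Ki-67, a chromosome surface protein found in dividing cells and lost in resting ones. TOP2A encodes topoisomerase II alpha, which untangles DNA as chromosomes condense and separate. Both rise through S phase to a peak in G2 and mitosis, so cells in early G1 can miss the rule although they will divide again. In squamous carcinoma cells the epidermal growth factor receptor (EGFR) drives entry into the cycle through MAPK signalling, D-type cyclins and release of the E2F factors.

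The study compared cetuximab, an antibody that blocks EGFR, with phosphate-buffered saline (PBS, untreated) in the established lines SCC1, SCC6 and SCC25. Cetuximab was given at 100 nM every day over 5 days from 24 hours after the cells were seeded, and PBS cells were kept for the same time. Each of the 6 groups (a line with cetuximab or with PBS) had replicates 1 and 2, which made 12 samples of the 10x Chromium 3′ assay. The sources speak of duplicates without stating separate cultures, so each SD, SE and p below may cover the spread between libraries only.

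All cells were collected at this 1 time and no cell was followed, so whether a cycling cell under cetuximab had kept dividing throughout, or had begun again, cannot be read from these data. The label of cycling cells was checked with genes outside the rule, after cells had been thinned to 15000 UMIs each. Cells with fewer than 15000 UMIs were left out of the thinned values. UBE2C, which tags cyclins for destruction in mitosis, was found in 79.5% to 96.5% of cycling cells across the 12 samples and in 8.95% to 56.7% of other cells. CDK1, the kinase that starts mitosis, was found in 65.1% to 83.2% of cycling cells and in 6.61% to 24.9% of other cells. TYMS, an S-phase enzyme of thymidylate synthesis, was found in 62.3% to 92.6% of cycling cells and in 14.2% to 52.3% of other cells. Of 13 cycle genes outside the rule, these 3 and 7 more had ranges that did not overlap between the classes. The ranges of PCNA (47.8% to 90.9% against 24.3% to 65.5%), MCM2 (21.3% to 46.7% against 5.51% to 23.1%) and CCNB2 (44.2% to 80.5% against 9.37% to 44.6%) overlapped, and other cells were not free of cycle transcripts.

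At the edge of the rule, 8 to 82 cells per sample held exactly 1 UMI of each gene. The summed level of 52 G2/M genes in them was 1276 to 3407 CPM (UMIs scaled to the same total in every sum). Just outside, cells with MKI67 but no TOP2A stood at 1640 to 3681 CPM and cells with TOP2A but no MKI67 at 1261 to 1987 CPM. Cells with neither gene stood at 914 to 1369 CPM, whereas members with at least 2 UMIs of each gene stood at 6440 to 9834 CPM. The cells on either side of the edge were thus alike in G2/M level, and the bulk of the members lay far above it.

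Depth differed between samples and between the classes of cells. The sums over cycling cells held 15358423 to 73443024 UMIs per sample. The median cycling cell held 29694 to 71353 UMIs, against 21373 to 51423 in other cells. Cetuximab replicate 1 of SCC6 was the shallowest, with a median of 29694 UMIs per cycling cell against 59463 in cetuximab replicate 2. Between 3 and 10 cell barcodes recurred in both replicates of a group, and between 1 and 13 in any other pair of samples. Of 14 markers of blood, endothelial, stromal and liver cells, PTPRC, CD3E, LYZ, PECAM1, VWF, CDH5, PDGFRA, HBB and ALB held at most 11 UMIs in the cycling cells of any sample. The summed level of the 14 markers was 6.49 to 24.2 CPM in SCC1 and SCC6 and 164 to 207 CPM in SCC25. CD68 held most of it in SCC25, with 4468 to 9806 UMIs per sample, against 228 to 930 of LUM and 63 to 147 of COL3A1.

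The first question was whether fewer cells cycled with cetuximab. The share of cycling cells was lower with cetuximab in every line, by 19.6 percentage points on average. In SCC1 cycling cells made up 63.1% and 61.8% of cells with PBS and 22.6% and 42.0% with cetuximab. In SCC6 they made up 53.4% and 63.7% with PBS and 37.8% and 50.9% with cetuximab. In SCC25 they made up 51.2% and 36.9% with PBS and 36.6% and 22.6% with cetuximab.

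The groups did not overlap in any line, but in SCC25 PBS replicate 2 and cetuximab replicate 1 all but touched. Their exact binomial intervals (95%, counting error only) ran from 35.0% to 38.8% and from 34.5% to 38.8%. The group means were 62.4% ± 0.947 (SD, n = 2) against 32.3% ± 13.8 in SCC1, 58.6% ± 7.30 against 44.3% ± 9.24 in SCC6 and 44.0% ± 10.1 against 29.6% ± 9.88 in SCC25. An exact two-sided permutation test within lines gave p = 0.00926, the smallest value that its arrangements allow. Within replicate numbers the share was lower in 6 of 6 pairs (exact sign-flip test, p = 0.03125).

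**Figure D1:**
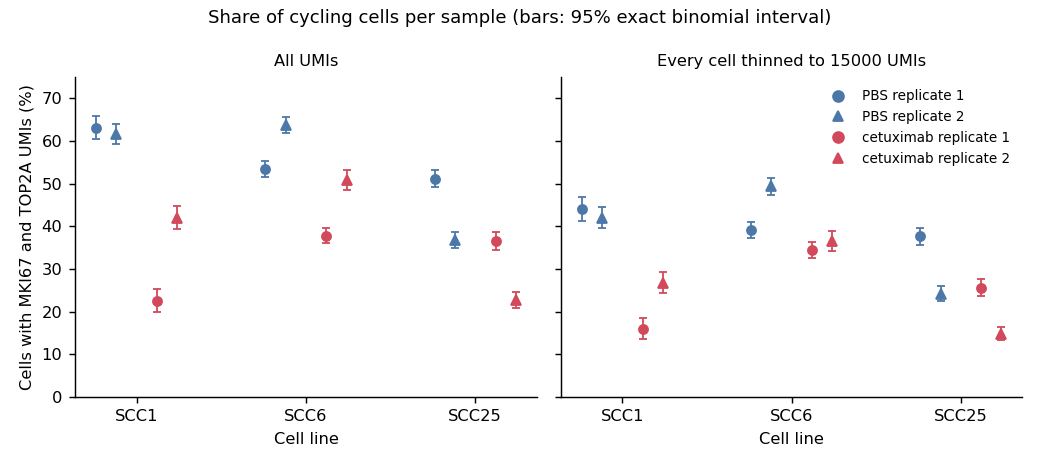
Share of cycling cells (%, vertical axis) in each of the 12 samples by line. All UMIs are on the left, and cells thinned to 15000 UMIs, without those below that number, are on the right. Points are samples, bars are exact binomial 95% intervals, blue is PBS and red is cetuximab. In SCC25 cetuximab replicate 1 lies level with PBS replicate 2, and after thinning it lies above it.

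Deeper cells pass a rule of at least 1 UMI more easily, so the share was recomputed at equal depth. After thinning, the shares were 44.0% and 42.0% with PBS against 15.9% and 26.7% with cetuximab in SCC1. They were 39.1% and 49.3% against 34.4% and 36.5% in SCC6, and 37.6% and 24.2% against 25.6% and 14.8% in SCC25. The mean difference became 13.7 points lower (exact permutation p = 0.0185). Thinning lowers every share, and the ratio of the PBS to the cetuximab mean moved little. It went from 1.93 to 2.02 in SCC1, from 1.32 to 1.25 in SCC6 and from 1.49 to 1.53 in SCC25. After thinning the SCC25 groups overlapped. They also overlapped without the 5% of cells with most UMIs, without cells over 20% mitochondrial UMIs and with at least 2 UMIs of each gene, where the SCC6 groups overlapped too. Cetuximab replicate 1 of SCC6, the shallow library, moved least on thinning. It also lost the largest part of its cells, 9.18%, but 5.00% of its cycling cells, which by itself raises the share.

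MKI67 and TOP2A were detected together more often than their separate shares would give if they were independent. The ratio of the observed to that product was 1.19 to 2.64 over the 12 samples. Its upper limit rises as the shares fall, so it is not compared between treatments. Cells with neither gene made up 26.4% and 19.1% with PBS and 44.0% and 28.4% with cetuximab in SCC6. The mean MKI67 count per cycling cell was 15.6 and 15.3 UMIs with PBS and 15.5 and 12.9 with cetuximab in SCC1. It was 7.07 and 8.28 against 8.07 and 10.4 in SCC6, and 8.59 and 10.6 against 11.5 and 13.6 in SCC25. These are descriptions of the genes used for selection, unscaled for depth.

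The next question was whether the cells that still cycled did so with the same cell cycle programme. Their summed G2/M level was close between treatments. In SCC1 it was 7119 and 7859 CPM with PBS and 6371 and 6775 CPM with cetuximab. In SCC6 it was 5848 and 9126 CPM against 7854 and 8066 CPM, and in SCC25 6633 and 8688 CPM against 7603 and 8967 CPM. The groups overlapped in SCC6 and SCC25, and in SCC1 both cetuximab samples were lower. The summed level of 42 S-phase genes was 2966 and 3267 CPM with PBS and 3194 and 3228 CPM with cetuximab in SCC1. It was 1506 and 2124 CPM against 1754 and 2553 CPM in SCC6, and 1377 and 2189 CPM against 1699 and 2213 CPM in SCC25. The rule sets a floor on MKI67 and TOP2A in every member, and genes that move with them are in part held by that floor.

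In other cells of the same libraries the G2/M level was 1662 and 1520 CPM with PBS and 1087 and 1196 CPM with cetuximab in SCC1. It was 1534 and 2190 CPM against 1171 and 1481 CPM in SCC6, and 2214 and 1706 CPM against 1811 and 1365 CPM in SCC25. Every cetuximab sample was lower than both PBS samples in SCC1 and SCC6, and the groups overlapped in SCC25.

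Gene by gene, the sums over cycling cells were tested with edgeR's quasi-likelihood test on 16558 genes, with false discovery rates (FDR, Benjamini-Hochberg) over all of them and a threshold of 0.05. Fold changes below are log2 of cetuximab over PBS. Same-numbered samples deviated together in these data, although no label states a pairing. A second fit therefore took the replicate number within each line as a block. Its calls are given beside those without the block where they differ. With the block many more genes were called in SCC6 (10.5% of all genes higher and 10.4% lower), so its counts there are read against those shares.

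Of the 52 G2/M genes 0 passed in any line, where the background of genes called was 0% in SCC1 and SCC25 and 2.45% higher and 1.27% lower in SCC6. For SCC1, SCC6 and SCC25 their median log2 fold changes were -0.32, -0.10 and 0.03, against -0.03, 0.00 and 0.01 over all genes. In SCC1 all 52 were below 0, and for 24 of them both cetuximab samples lay below both PBS samples (18.3% of all genes did so, and 14.5% lay above). At an unadjusted p under 0.05, edgeR counted 662 genes in SCC1, 3239 in SCC6 and 602 in SCC25 over the whole table.

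PLK1, a kinase of mitosis, stood at 104 and 202 CPM with PBS and 79.3 and 120 CPM with cetuximab in SCC6, and its groups overlapped (log2 fold change -0.62 ± 0.49 SE, edgeR FDR = 0.536). With the block PLK1, CDC20, an activator of late mitosis, and the chromatin protein HMGB2 were lower in SCC6 (3 of 52, where 10.4% of all genes were called lower and 10.5% higher). CDK1 was level, at 191 and 296 CPM with PBS and 202 and 288 CPM with cetuximab in SCC6.

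Of the 42 S-phase genes 0 passed in any line, and their medians were -0.04 in SCC1, 0.05 in SCC6 and 0.11 in SCC25. PCNA, the clamp of DNA polymerases, stood at 202 and 268 CPM with PBS and 228 and 236 CPM with cetuximab in SCC1. TYMS stood at 218 and 256 CPM with PBS and 224 and 240 CPM with cetuximab in SCC1, and its log2 fold changes were -0.03, -0.03 and 0.04 in SCC1, SCC6 and SCC25 (SE 0.35 in each). With the block 3 of the 42 were higher in SCC6 and 1 lower, both smaller shares than over all genes (10.5% and 10.4%). The higher one among the leads was CCNE2, the cyclin of the G1 to S step, at 3.74 and 4.81 CPM with PBS and 7.65 and 12.2 CPM with cetuximab (edgeR FDR = 0.0883 without and 0.00737 with the block).

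Cell cycle transcription factors, 9 in all, had medians of 0.07, 0.30 and -0.02 in SCC1, SCC6 and SCC25, and 0 passed. MYBL2, which switches on late cycle genes, stood at 119 and 155 CPM with PBS and 217 and 220 CPM with cetuximab in SCC6 (log2 fold change 0.67 ± 0.18, edgeR FDR = 0.0683). It passed with the block (FDR = 0.0104) as the only 1 of the 9, a share like the 10.5% of all genes. E2F1 had log2 fold changes of 0.07, 0.37 and 0.13, and FOXM1 of -0.14, 0.15 and -0.06.

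Among 17 G1 cyclins and CDK inhibitors 0 passed without the block, and the medians were -0.02, 0.15 and 0.16. CDKN1A, which encodes the inhibitor p21, stood at 30.9 and 25.7 CPM with PBS and 62.9 and 46.7 CPM with cetuximab in SCC1. In SCC6 it stood at 47.6 and 57.3 CPM against 84.8 and 107 CPM, and in SCC25 at 47.7 and 56.5 CPM against 72.0 and 53.0 CPM. The groups were apart in SCC1 and SCC6 and overlapped in SCC25. Its FDR in edgeR was 0.689 in SCC1 and 0.0794 in SCC6, and with the block 0.0491 in SCC1 and 0.00797 in SCC6. CDKN2B, another CDK inhibitor, also passed with the block in SCC1 (2 of 17, both higher, where 0.513% of all genes were called higher and 0.0906% lower) and 5 of 17 were higher in SCC6 with the block (10.5% of all genes). CCND1, the D-type cyclin downstream of EGFR, had log2 fold changes of -0.02, -0.04 and 0.48 in SCC1, SCC6 and SCC25, none of which passed.

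**Figure D2:**
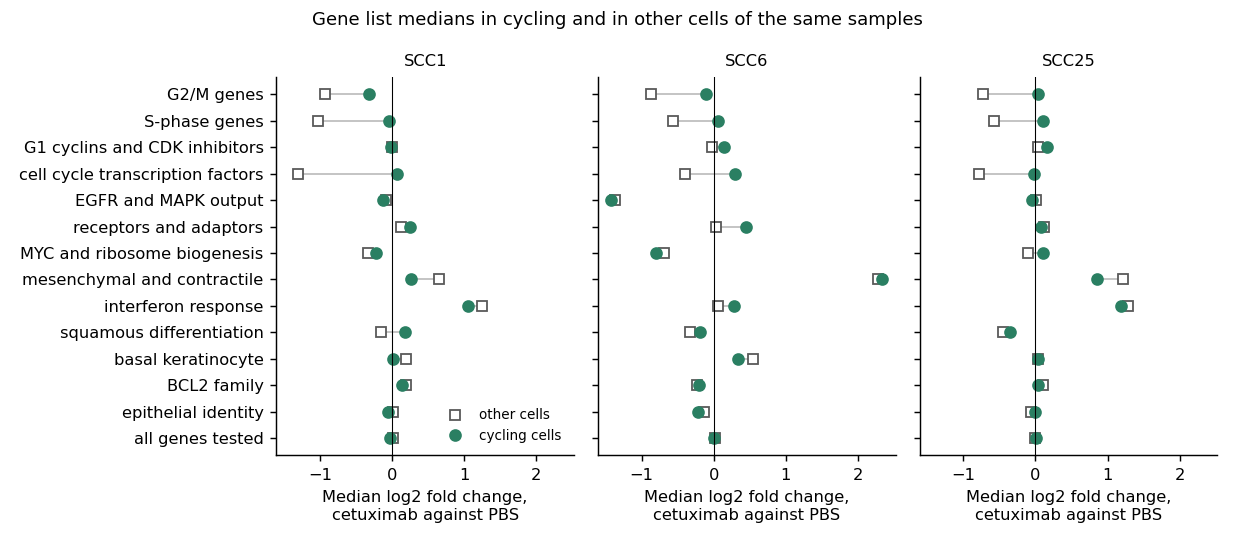
Median log2 fold change (horizontal axis, cetuximab against PBS) of each gene list by line, in cycling cells (green circles) and in other cells of the same samples (open squares). The G2/M, S-phase and transcription factor lists lie below 0 in other cells and nearer 0 in cycling cells, the G1 list lies near 0 in both, and the mesenchymal and the EGFR lists of SCC6 lie together in both.

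Most of the called genes lay in SCC6. edgeR called 616 genes there, 405 higher and 211 lower with cetuximab, against 0 in SCC1 and 0 in SCC25. DESeq2 called 42 genes in SCC1, 1422 in SCC6 and 12 in SCC25. With the block 100, 3457 and 38 genes were called in the same order. These changes were largely shared with other cells. Of the 616 genes in SCC6, 611 had the same sign in other cells. That share over all genes is not given here. In cycling against other cells 0 of the 616 were called, but that test called 0 of all 17000 genes in SCC6, so this 0 was fixed in advance. Their median absolute log2 fold change was 1.95 in cycling and 1.72 in other cells. All 100 blocked calls of SCC1 and all 38 of SCC25 had the same sign in other cells too. The SCC6 count rested on single libraries. Leaving out PBS replicate 1 left 8 genes and leaving out PBS replicate 2 left 652. Leaving out cetuximab replicate 1, the shallow library, left 84 genes, and leaving out cetuximab replicate 2 left 377. A difference between the lines was called for 0 genes (0%) by the interaction of line and treatment in edgeR (1243 at an unadjusted p under 0.05, 244 by DESeq2, 300 with the block). The smallest p there was that of LY6K, with log2 fold changes of -0.22 in SCC1, -2.42 in SCC6 and -0.10 in SCC25 (FDR = 0.113, and 0.00826 with the block). VIM was among the next, with -1.34, 3.72 and 0.76 (FDR = 0.157, and 0.00369 with the block).

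Genes of the contractile cytoskeleton and collagen genes were among those that rose most in SCC6 cycling cells. MYL7, a myosin light chain of heart muscle, stood at 0.974 and 2.78 CPM with PBS and at 184 and 186 CPM with cetuximab (log2 fold change 6.61 ± 0.47 SE, edgeR FDR = 0.000943). TPM1, a tropomyosin of actin filaments, stood at 196 and 258 CPM with PBS and 1503 and 1619 CPM with cetuximab (2.78 ± 0.24, FDR = 0.00104). These were the only 2 of the 20 named genes that passed in all 13 alternatives. TAGLN (transgelin) rose from 193 and 175 CPM to 912 and 1274 CPM, and MYL9, a myosin light chain of non-muscle and smooth muscle cells, from 83.1 and 75.7 CPM to 387 and 556 CPM.

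VIM, the intermediate filament vimentin, stood at 36.4 and 76.8 CPM in SCC6 cycling cells with PBS and at 757 and 732 CPM with cetuximab (log2 fold change 3.72 ± 0.52, edgeR FDR = 0.00735). At 15000 UMIs per cell, VIM was found in 18.5% and 31.4% of cycling cells with PBS and in 91.9% and 92.1% with cetuximab, so nearly all of the cetuximab-treated cycling cells held it. The shares in other SCC6 cells were 17.9% and 36.4% with PBS and 93.5% and 93.3% with cetuximab. In SCC1, where VIM is near absent, 2.22% and 2.87% of cycling cells with PBS and 0.943% and 1.24% with cetuximab held a VIM UMI. In SCC25 the shares in cycling cells were 82.9% and 62.4% with PBS and 86.9% and 85.3% with cetuximab, and VIM did not pass there (0.76 ± 0.47, edgeR FDR = 1).

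The other named genes that rose in SCC6 were the collagens COL5A1 (4.08) and COL4A1 (2.93), IGFBP5 (4.21), which binds insulin-like growth factors, the tubulin TUBA1A (3.77) and BAMBI (2.66), a decoy receptor of TGF-beta signalling. In each of these 5 both cetuximab samples lay above both PBS samples, as did 24.4% of all genes, and 20.7% lay below. BAMBI was the least firm, called in 6 of 13 alternatives. Of 26 mesenchymal and contractile genes tested, 15 were higher, 0 were lower and the median log2 fold change was 2.33. Over all genes 2.45% were called higher and 1.27% lower. The stromal marker COL3A1 held 0 and 6 UMIs in SCC6 cycling cells with PBS and 79 and 95 with cetuximab, and DCN 0 and 1 against 16 and 5. LUM overlapped, at 2 and 12 against 11 and 35. CD68 went the other way, from 1485 and 843 to 105 and 208. PTPRC and PECAM1 held at most 2 in any of the 4 samples. These counts are unscaled for depth.

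The genes that fell most were led by outputs of EGFR signalling. AREG (amphiregulin, an EGFR ligand) stood at 593 and 136 CPM with PBS and 9.77 and 25.8 CPM with cetuximab (log2 fold change -4.35 ± 0.68, edgeR FDR = 0.0109). EREG (epiregulin, another ligand) stood at 220 and 107 CPM against 9.11 and 25.5 CPM. PHLDA1, an early response gene of MAPK signalling, stood at 741 and 167 CPM against 29.1 and 47.5 CPM. PBS replicate 1 was far above PBS replicate 2 for all 3, and without it none of them passed (FDR = 0.0636 for AREG, 0.0951 for EREG and 0.0573 for PHLDA1).

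GDF15 (-3.68), a stress cytokine, AQP3 (-3.67), a channel for water and glycerol, DKK1 (-2.69), an inhibitor of Wnt signalling, and SLPI (-2.65), a protease inhibitor of mucosal surfaces, fell too. So did the adaptor FYB1 (-2.39), DDIT4 (-2.09), a stress-induced brake on mTORC1, and AVPI1 (-1.92). Without PBS replicate 1 the value of GDF15 became -1.45 and that of DDIT4 -0.78, and neither passed. Of 24 genes of EGFR and MAPK output, 7 were lower (DUSP4, ETV4, PHLDA1, EREG, AREG, FOSL1 and MYC), EPHA4 was higher, and the median was -1.42, where 1.27% of all genes were lower and 2.45% higher. With the block 13 of the 24 were lower and 1 higher (10.4% and 10.5% of all genes), DUSP5, ETV5, HBEGF, TGFA, ERRFI1 and PLAUR being added. Of 16 genes of MYC and ribosome biogenesis, 3 were lower (MYC, NOLC1 and WDR43), none of the 16 was above 0 and the median was -0.80. With the block all 16 were lower, against 10.4% of all genes.

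MYC itself, which drives growth and ribosome synthesis, stood at 455 and 230 CPM with PBS and 57.5 and 129 CPM with cetuximab in SCC6 cycling cells (-1.88 ± 0.42, edgeR FDR = 0.0363). In SCC1 it stood at 111 and 136 CPM against 100 and 102 CPM, and in SCC25 at 125 and 179 CPM against 104 and 150 CPM, where the groups overlapped. EGFR, the target of the antibody, had log2 fold changes of 0.02, -0.17 and 0.11 in SCC1, SCC6 and SCC25 (SE 0.19 in each). Among 15 receptors and adaptors FGFR2 alone was called without the block, higher in SCC6 (1.79, where 2.45% of all genes were) at a level of 1.44 CPM in PBS replicate 1 and 4.66 CPM in cetuximab replicate 2. With the block 6 of the 15 were higher in SCC6 (ERBB2, MET, FGFR1, FGFR2, IGF1R and INSR, against 10.5% of all genes). Of 11 BCL2 family genes BMF alone was called without the block, at 3.08 and 4.02 CPM against 20.7 and 11.2 CPM in SCC6. BMF encodes a protein that promotes cell death. With the block BCL2L11, of the same role, was higher as well, which made 2 of 11, against 10.5% of all genes.

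**Figure D3:**
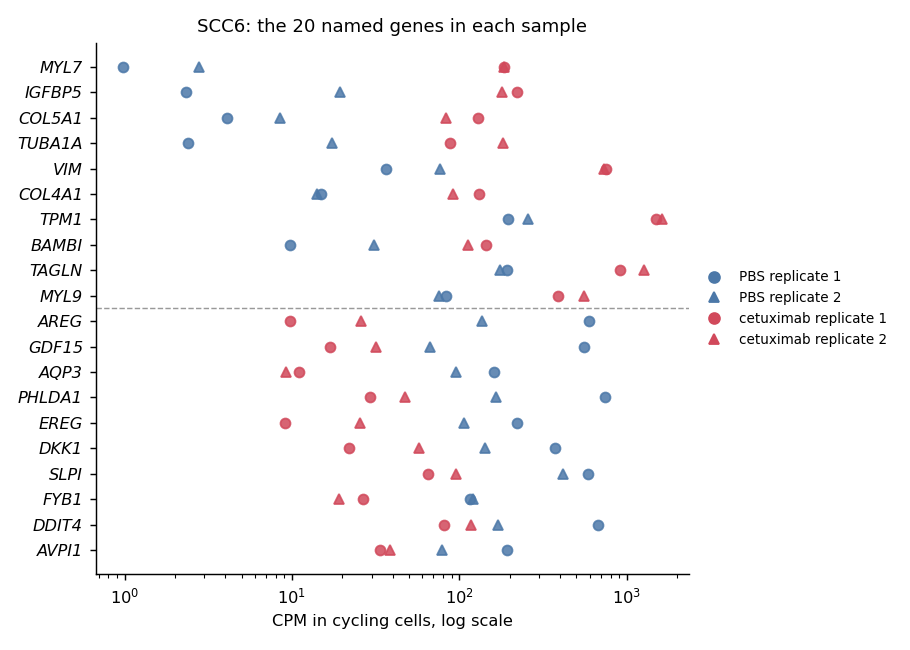
CPM in SCC6 cycling cells (horizontal log axis) of the 20 named genes, higher with cetuximab above the dashed line and lower below it. Each point is 1 sample (blue PBS, red cetuximab, circle replicate 1, triangle replicate 2). MYL7 goes from 0.974 and 2.78 to 184 and 186 CPM, and the PBS samples of AREG, GDF15 and PHLDA1 lie far apart.

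In SCC1 0 genes passed in edgeR, so the genes with the smallest p are given as values. IFIT2, an interferon-induced antiviral protein, stood at 120 and 76.6 CPM with PBS and 455 and 265 CPM with cetuximab in cycling cells (1.87 ± 0.34, edgeR FDR = 0.355). RSAD2, another antiviral enzyme, had a log2 fold change of 2.05 ± 0.46, OLR1, a scavenger receptor, stood at 48.4 and 46.1 CPM against 196 and 99.9 CPM, and TAGLN stood at 377 and 235 CPM against 955 and 615 CPM. The groups did not overlap for any of these 4 genes. On the lower side C16orf74, UCA1, LGALS1, TMEM256 and ITGAE had log2 fold changes between -1.20 and -0.59 and FDR from 0.741 to 0.986.

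With the block SCC1 had 85 genes higher and 15 lower. Those higher included IFIT2 (FDR = 0.00111), RSAD2 (0.00313), NPPB (0.00348), TAGLN (0.00660), CXCL10 (0.0227), IFIT3 (0.0474) and GBP1 (0.0498). Those lower at 50 CPM or more were UCA1 (0.0372), CRABP2 (0.00878) and C16orf74 (0.0289). Of the 26 mesenchymal and contractile genes 7 were higher with the block in SCC1 (FN1, CDH2, TAGLN, MYL9, TPM1, CNN1 and SPARC). CNN1 was near the floor there, at 0.164 and 0.0149 CPM with PBS and 1.16 and 0.302 CPM with cetuximab. Over all genes 0.513% were called higher and 0.0906% lower. A block shared by the lines, with 1 replicate effect for all 3, left 1 gene in SCC1, and the calls of the block are read with that in view.

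The interferon list gave the clearest group pattern in SCC1 and SCC25 without a call by edgeR. In SCC1 all 26 genes had log2 fold changes above 0 (median 1.05), and for 23 of them both cetuximab samples lay above both PBS samples (14.5% of all genes). In SCC25 19 of 26 lay above (12% of all genes, and 12.2% below), with a median of 1.18. In SCC6 6 of 26 lay above, no more than the 24.4% over all genes, and the median was 0.29. ISG15, a ubiquitin-like protein, stood at 2197 and 1024 CPM with PBS and 4215 and 2799 CPM with cetuximab in SCC1, and at 682 and 752 CPM against 2221 and 896 CPM in SCC25. Cetuximab replicate 1 was higher than cetuximab replicate 2 in both lines. With the block 7 of 26 were called higher in SCC1 (0.513% of all genes) and 1, RSAD2, in SCC25 (0.145%). In SCC6 5 were higher and 2 lower with the block, where 10.5% and 10.4% of all genes were.

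In SCC25 0 genes passed either. TAGLN stood at 102 and 94.3 CPM with PBS and 410 and 441 CPM with cetuximab (2.11 ± 0.29, edgeR FDR = 0.358). MYL9 stood at 253 and 363 CPM against 641 and 947 CPM, and TPM1 at 418 and 416 CPM against 1096 and 812 CPM. IL32, a cytokine, stood at 30.5 and 18.5 CPM against 618 and 94.2 CPM, so most of its change lay in cetuximab replicate 1. LY6D, a surface protein of stratified epithelium, stood at 572 and 1402 CPM against 156 and 362 CPM, with both cetuximab samples below both PBS samples.

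With the block SCC25 had 24 genes higher and 14 lower (0.145% and 0.0846% of all genes). TAGLN (FDR = 0.00342), MYL9 (0.0122), TPM1 (0.0122), THBS1 (0.0122), IGFBP7 (0.0232) and ACTA2 made 6 of the 26 mesenchymal and contractile genes. KRT13 (0.0122), a keratin of stratified mucosa, KRT15 (0.0163), a basal keratin, LY6D (0.0122) and AQP3 (0.00450) were among the lower ones. KRT13 stood at 80.2 and 471 CPM with PBS and 11.2 and 134 CPM with cetuximab, and the groups overlapped. With the block shared by the lines 6 genes were called in SCC25, TAGLN (FDR = 0.0209) and MYL9 (0.0388) among them.

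Across the lines, 54 genes were called in cycling cells, 44 higher and 10 lower (0.266% and 0.0604% of all genes), by edgeR with line as a covariate. DESeq2 called 573. With the block the count was 240, 157 higher and 83 lower (0.948% and 0.501%). All 54 genes had the same sign in other cells. In cycling against other cells 5 of the 54 were called (2.48% of all genes higher and 1.01% lower). Leaving out 1 library left 3 to 114 genes, with 3 without PBS replicate 1 of SCC6 and 114 without cetuximab replicate 2 of SCC25.

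TAGLN was the firmest of these, called in all 20 alternatives, at 2.02 ± 0.21 on the log2 scale (edgeR FDR = 0.00552). Its cetuximab samples lay above its PBS samples in each of the 3 lines. OLR1 (1.56 ± 0.20, FDR = 0.0119) was called in 19 of 20, and MYL9 (1.62 ± 0.25, FDR = 0.0334) in 16 of 20. OLR1 stood at 26.7 and 30.4 CPM with PBS and 95.3 and 95.1 CPM with cetuximab in SCC6, and at 21.7 and 26.4 CPM against 79.7 and 39.1 CPM in SCC25. TPM1 (1.57), IL32 (2.78), FSTL1 (1.26), the CDC42 effector CDC42EP3 (1.04), the antigen-presenting HLA-B (0.91), the actin-binding CSRP1 (0.87) and the autophagy gene GABARAPL1 (0.81) were also higher. They were called in 9 to 14 of 20 alternatives.

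Of the genes that were lower across lines EBPL alone reached 50 CPM (-0.59 ± 0.11, edgeR FDR = 0.0479). It stood at 230 and 215 CPM with PBS and 121 and 132 CPM with cetuximab in SCC6 and at 96.0 and 113 CPM against 65.5 and 82.3 CPM in SCC25. LY6D (-1.61, FDR = 0.0562), NPM3 (-0.54, 0.0606), AQP3 (-2.30, 0.0654) and S100A14 (-0.78, 0.0689) were the next by p and did not pass. They passed with the block except S100A14 (FDR = 0.0523).

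The median of the mesenchymal list across lines was 1.19, with 4 of 26 called higher (TAGLN, MYL9, TPM1 and CNN1, against 0.266% of all genes). CNN1 lay near the floor, at 1.54 CPM or less in every sample. The median of the interferon list was 0.90 with 0 called. With the block 7 mesenchymal and 8 interferon genes were higher (0.948% of all genes), ISG15, IFI6 and IFIT1 among the latter. The medians of 17 squamous differentiation genes (-0.40) and 10 basal keratinocyte genes (0.23) went with 0 calls. So did those of 24 EGFR and MAPK output genes (-0.39) and 16 genes of MYC and ribosome biogenesis (-0.31). With the block LY6D of the squamous list was lower. The fall of the EGFR and MAPK list lay mainly with SCC6 (median -1.42), against -0.12 for SCC1 and -0.05 for SCC25. For the MYC and ribosome list the SCC6 median was -0.80 and that of SCC1 -0.22, with all 16 genes below 0 in both lines. SCC25 went the other way for that list, with a median of 0.11 and 13 of the 16 genes above 0.

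**Figure D4:**
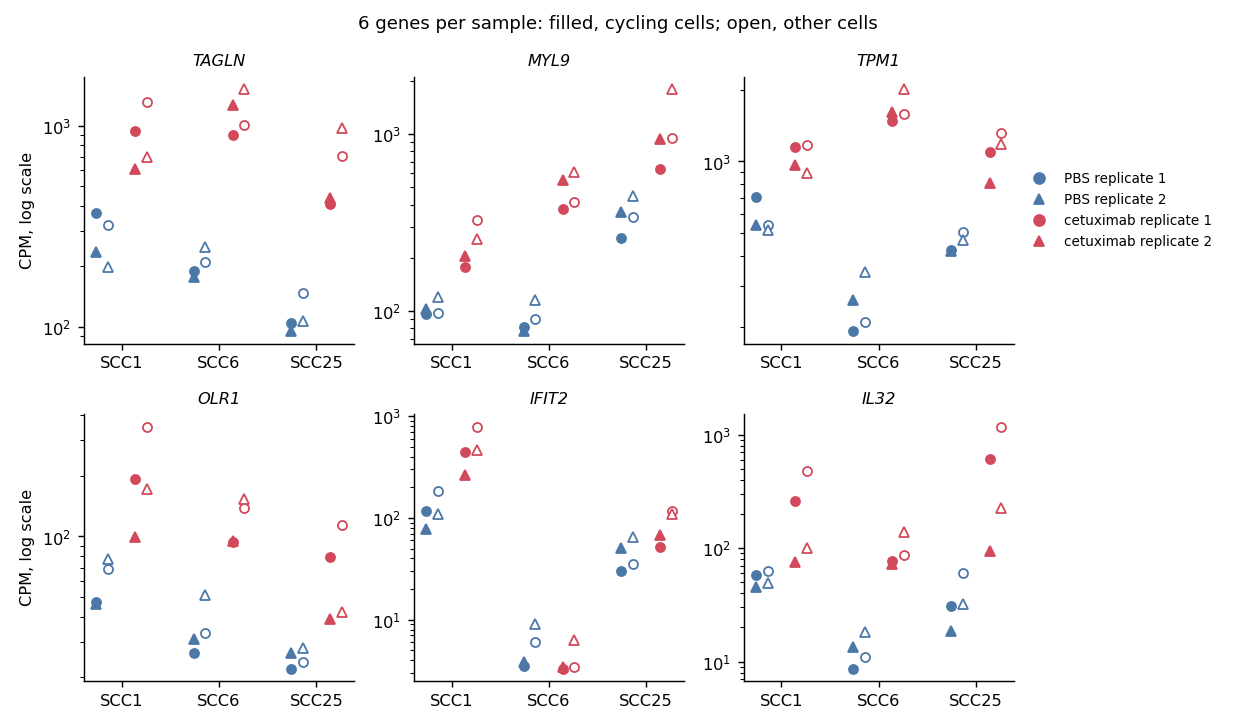
CPM (vertical log axis, scaled over cycling and other cells together) of 6 genes in each sample by line, with cycling cells filled and other cells open. TAGLN, MYL9 and TPM1 are higher with cetuximab (red) than with PBS (blue) in all 3 lines, whereas IFIT2 is apart between treatments in SCC1 and level in SCC6, and IL32 is high in cetuximab replicate 1 of SCC1 and SCC25.

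The last comparison asked whether cetuximab acted differently on cycling and on other cells of the same library. The fit took 24 sums with 1 term per library, so what a whole library shares cancels, and each difference is the change in cycling cells minus that in other cells in this fit. The fold changes printed beside a difference come from separate fits to each class of cells, so their own difference can depart from it. Across lines 593 of 17000 genes differed in edgeR, 422 with a higher value in cycling cells (2.48%) and 171 with a lower one (1.01%). Against other cells with 0 UMIs of both genes the count was 262, and DESeq2 gave 457. Leaving out 1 library gave 203 (without cetuximab replicate 1 of SCC1) to 921 (without cetuximab replicate 1 of SCC25).

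The 8 named genes on the higher side act in the cell cycle, and their fold changes lay near 0 in cycling cells and below 0 in other cells. The cell cycle lists held a minority of the 422 genes. They do not hold every cycle gene (CEP55 and PCLAF are in none), and how many of the rest follow the cycle was not tested. Of the 52 G2/M genes 32 were called, of the 42 S-phase genes 34 and of the 9 transcription factors 7, all with higher values in cycling cells (2.48% of all genes). This direction is not independent of the rule, since it sorts cells by transcripts of the same programme. Against cells with neither gene, 13, 24 and 4 were called. CEP55, needed for the final cut of cell division, had log2 fold changes of -0.14 in cycling and -1.45 in other cells, a difference of 1.32 ± 0.21 (edgeR FDR = 0.0074). PCLAF, a partner of PCNA, had -0.09 and -1.34, and RRM2, a subunit of ribonucleotide reductase, 0.12 and -1.09. NUF2 and SPC25, parts of the kinetochore, differed by 1.30 and 1.21, CLSPN, a replication checkpoint protein, by 1.22, PIMREG by 1.17 and the linker histone HIST1H1D by 1.26.

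The genes on the lower side include several with positive fold changes in both classes, smaller in cycling cells. FN1 (fibronectin) had log2 fold changes of 1.24 in cycling and 1.71 in other cells across lines (difference -0.50 ± 0.10, edgeR FDR = 0.0168). TAGLN had 2.02 and 2.40 (-0.37 ± 0.08, FDR = 0.0233), and the cytokine LTB 1.98 and 2.80 (-0.57). KRT8, a keratin of simple epithelia, had 0.19 and 0.59 (-0.38), and IVNS1ABP 0.89 and 1.30 (-0.41). DKK1 had -0.23 and 0.14 (-0.38), and TSPAN1 -0.61 and -0.09 (-0.53). In cycling cells DKK1 went opposite ways by line. It stood at 80.2 and 59.2 CPM with PBS and 182 and 149 CPM with cetuximab in SCC1. In SCC6 it stood at 371 and 143 CPM against 21.8 and 57.6 CPM, and in SCC25 at 487 and 553 CPM against 583 and 806 CPM. FN1 was apart in SCC1 and SCC6 and overlapped in SCC25, at 41.4 and 10.7 CPM against 56.1 and 10.6 CPM. Of 26 mesenchymal and contractile genes 7 had a lower value in cycling cells and 0 a higher one, where 1.01% and 2.48% of all genes did. Their median difference was -0.26 (log2) against -0.02 over all genes. These genes are not part of the rule, and against cells with neither gene 5 of the 26 were called.

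PHLDA1 and MYC, the 2 of 24 EGFR and MAPK output genes that were called, had less negative values in cycling cells. PHLDA1 had log2 fold changes of -1.36 in cycling and -1.83 in other cells and differed by 0.45 ± 0.07 (edgeR FDR = 0.0071) and MYC by 0.20 ± 0.05 (FDR = 0.0329). VIM differed by 0.80 ± 0.24 and did not pass (FDR = 0.0872). None of the 26 interferon genes passed, where only 2.48% of all genes were called higher and 1.01% lower.

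Within single lines the counts were small. In SCC1 20 genes differed, 9 with higher and 11 with lower values (0.0529% and 0.0647%). Among them were LTB (-1.54), CDC25B (0.98), a phosphatase that activates CDK1, SNRNP25 (0.73), KRT18 (-0.72) and DNAJC15 (-0.70). In SCC25 7 differed, 2 higher and 5 lower (0.0118% and 0.0294%), of which NUPR1 (-0.79 ± 0.11, edgeR FDR = 0.0331), a stress-induced regulator, reached 50 CPM. In SCC6 0 differed (0%), with 1693 at an unadjusted p under 0.05 and 2 in DESeq2. With the block the counts rose to 847 in SCC1, 393 in SCC6, 1063 in SCC25 and 1646 across lines. The SCC1 count was 4 and 1 without PBS replicates 1 and 2 and 0 and 259 without cetuximab replicates 1 and 2. The SCC25 count was 1 and 203 without the PBS and 317 and 17 without the cetuximab replicates.

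**Figure D5:**
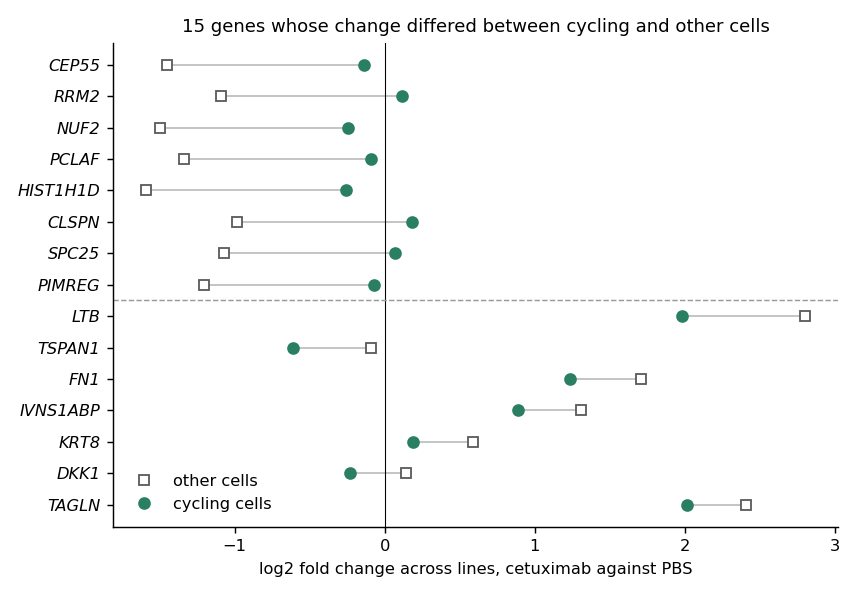
Log2 fold change across lines (horizontal axis, cetuximab against PBS) in cycling cells (green circles) and other cells (open squares) for 15 genes that differed. Above the dashed line cycle genes lie between -1.59 and -0.99 in other cells and near 0 in cycling cells. Below it TAGLN, FN1 and LTB are above 0 in both and smaller in cycling cells.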

How the data were processed

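The authors deposited raw UMI counts per gene and cell, 1 table for each line. Cell Ranger and GRCh38 are named in the submitters' processing notes, and the version and annotation are not given in the sources used here. The deposited column of cell names gave the sample of each cell, with 0 columns of per-sample values unused. Counts of 24 repeated symbols were added, which left 33514 symbols. No cells were filtered and no doublet caller was run. Genes are named by symbol, without coordinates.

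Counts were summed per sample over the cycling cells and tested with edgeR 4.0.16 in R 4.3.3 (filterByExpr, TMM, glmQLFTest). Residual degrees of freedom were 6 with 6 group means and with 24 sums, and more with line and treatment. Adding a block lowered them. All 12 samples entered with 6 group means, or with line and treatment. MKI67 and TOP2A were left out of the tested genes. The comparison with other cells used 24 sums with a term per sample. DESeq2 was version 1.42.0. Scripts ran in Python 3.11.15 with scipy 1.17.1 and were tested on simulated data. FDR below 0.05 was the threshold. CPM are TMM-scaled except summed list levels.

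Deviations of same-numbered samples correlated at 0.372 in SCC1, 0.370 in SCC6 and 0.580 in SCC25, so the labels' replicate numbers were taken as pairs. Named genes had a mean of at least 50 CPM: the 10 largest called changes in each direction (8 for cycling against other cells), or the 5 smallest p where fewer than 3 passed, and lead genes of each list. A gene that met this rule is not reported here. The named genes of the blocked fit were chosen after the values were seen. The members and the gene lists were chosen with earlier results of these data known. Alternatives were DESeq2 size factors, no count filter, DESeq2, blocks, thinned membership, at least 2 UMIs, no top 5% of cells by UMIs, no cells over 20% mitochondrial UMIs, cells with neither gene, 1 line alone and each library left out.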

Additional observations from a re-analysis of the deposited data

Results flagged for a closer look

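The results below differed between cycling and other cells in the response to cetuximab, by the edgeR test of that difference (log2 fold change in cycling cells minus that in other cells). Across lines the differences were 1.32 for CEP55, 1.30 for RRM2, 1.30 for NUF2, 1.26 for PCLAF, 1.26 for HIST1H1D, 1.22 for CLSPN, 1.21 for SPC25 and 1.17 for PIMREG. These 8 cycle genes are tied to the transcripts that chose the cells. On the lower side they were -0.57 for LTB, -0.53 for TSPAN1, -0.50 for FN1, -0.41 for IVNS1ABP, -0.38 for KRT8, -0.38 for DKK1 and -0.37 for TAGLN. In SCC1 they were 0.98 for CDC25B, 0.73 for SNRNP25, 0.67 for H2AFV, -1.54 for LTB, -0.72 for KRT18, -0.70 for DNAJC15, -0.65 for IFITM2, -0.51 for CST6 and -0.46 for S100A10, and in SCC25 -0.79 for NUPR1. Across lines, 9 of these genes were called in every one of 21 alternatives. LTB was called in 9 of 21. In SCC1 LTB stood at 119 and 23.9 CPM in the cycling cells with cetuximab, and in SCC25 at 329 and 12.3 CPM, so cetuximab replicate 1 carried its level.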

How the results depend on the processing

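The lower share of cycling cells kept its direction and its call over the 3 lines in all alternatives, although the groups of SCC25 or SCC6 overlapped in some, from 13.7 to 22.8 points lower, and leaving out 1 library gave -22.8 to -16.3. Counts of called genes moved more, and the causes were not tested. In the order SCC1, SCC6, SCC25, across lines and line by treatment, from 0, 616, 0, 54 and 0, they were 67, 1214, 39, 457 and 275 without the count filter, 100, 3457, 38, 240 and 300 with the replicate block, 1, 2683, 6, 399 and 116 with a replicate block shared by the lines (chosen after seeing the data), and 42, 1422, 12, 573 and 244 in DESeq2. SCC6 alone gave 243. Line by treatment gave 1 with thinned membership, 2 with at least 2 UMIs and 5 without the top 5% of cells, where the count across lines was 26.

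For cycling against other cells, in the order SCC1, SCC6, SCC25 and across lines, from 20, 0, 7 and 593, counts were 781, 400, 714 and 1386 without the filter, 847, 393, 1063 and 1646 with the replicate block, 124, 0, 14 and 791 with the shared block, and 114, 2, 22 and 457 in DESeq2. Thinned membership gave 1 in SCC6, 2 in SCC25 and 892 across lines, at least 2 UMIs 36 in SCC1 and 3 in SCC25, no top 5% 76 in SCC1, and cells with neither gene 39 in SCC1 and 262 across lines.

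Leaving out 1 library gave 0 in SCC1, 8 to 652 in SCC6, 0 in SCC25, 3 to 114 across lines and 0 to 19 for line by treatment. It gave 0 to 259, 0 to 3, 1 to 317 and 203 to 921 for cycling against other cells in the same order. Across lines the count fell to 11 and 20 without cetuximab replicates 1 and 2 of SCC1, 22 and 8 without its PBS replicates, 16 and 6 without the cetuximab and 3 and 7 without the PBS replicates of SCC6, and 35 without cetuximab replicate 1 of SCC25. For cycling against other cells across lines it was 235 and 218 without PBS replicates 1 and 2 of SCC1, 210 without PBS replicate 1 of SCC6, 256 and 229 without its cetuximab replicates and 305 without PBS replicate 1 of SCC25. Of 5511 values of single named genes under an alternative, 4937 kept their side of the threshold, 284 passed newly, 290 no longer passed and none of the called ones changed sign. The SE of single genes, with 2 samples a group, limits what could be called.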

Other observations

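Replicate numbers carried a shared pattern across the lines. Of 2770 genes with a mean of at least 50 CPM in cycling cells, 335 were higher in replicate 1 and 808 in replicate 2 in all 6 groups. Differences between replicate 1 and replicate 2 correlated across genes at 0.406 between SCC1 and SCC6, 0.502 between SCC1 and SCC25 and 0.434 between SCC6 and SCC25 (genes are not independent replicates). The labels do not say what the replicate number stands for.

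EPCAM, an epithelial adhesion molecule, stood in the cycling cells at 267 to 401 CPM in SCC1, 104 to 307 CPM in SCC6 and 89.0 to 217 CPM in SCC25. KRT5, the basal keratin, was high in SCC1 (240 to 534 CPM) and SCC25 (875 to 1986 CPM) and stood at 0.82 to 3.44 CPM in SCC6. Of the 8 epithelial identity genes 0 were called in any line without the block, and with it EPCAM, KRT5, KRT19 and DSP passed in SCC6. These were 2 higher and 2 lower, where 10.5% and 10.4% of all genes were.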
